A study of Mus musculus with 6 samples.

Results

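Genes of cholesterol synthesis and sterol regulation were described in CD31-positive cells of mouse tumours. The 27 genes were chosen by name: enzymes of the mevalonate pathway and of sterol synthesis, the SREBP transcription factors with their regulators, and genes of sterol transfer and esterification. Of these, 24 had a row among the 23930 genes of the deposited table and 23 passed the filter on low values. Acat2, Idi1 and Fdps matched no row by name and are not analysed here. Tm7sf2 had a row and did not pass the filter, which asks for at least 5 RPM (the reads of a gene relative to all reads of its library) in at least 3 libraries.

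The tumours grew under the skin of C57/Bl6 mice for 2 weeks from Lewis lung carcinoma cells, a mouse lung cancer line. The injected cells were either controls (replicates 1, 2 and 3) or overexpressed BMP9 (replicates 4, 5 and 6), a growth factor of the BMP family known to act on endothelial cells. The host strain was the same in both groups, and the overexpression was in the tumour cells and not in the host cells that were sorted. The labels do not say how many animals gave each library, or whether the overexpressing line was a single clone. The p-values therefore measure the spread between these libraries, which may be technical.

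Cells build cholesterol from acetyl-CoA. The mevalonate pathway first makes isoprenoid units, which are joined into farnesyl diphosphate. Squalene synthase commits that intermediate to sterols, while geranylgeranyl diphosphate synthase directs it to protein prenylation. When sterols in the endoplasmic reticulum run low, the escort protein SCAP carries SREBP factors to the Golgi for cleavage, and the freed factors switch on most genes of the pathway. INSIG proteins hold SCAP and SREBP back when sterols are plentiful. Dividing lymphocytes are known to draw on this pathway for membranes, and macrophages are known to take up, esterify and export sterol.

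SREBP factors are known to act at promoters through sterol regulatory elements, often with an NF-Y box or an Sp1 box nearby, so the promoters of the genes were searched for these letters. RefSeq windows (GRCm38.p6, the same coordinates as mm10) covering the 250 bases before a transcription start were available for 23 of the 27 genes, in 31 windows. Fdft1, Sqle, Fdps and Stard4 had no window, so their promoters were not searched. The motifs searched on both strands were TCACNCCAC (a degenerate form of the sterol regulatory element), CCAAT (NF-Y box), GGGCGG (Sp1 box) and CACGTG (E-box). A longer, exact form of the sterol element was also searched and matched none of the 23 genes. The degenerate sterol element was found in 1 gene, Hmgcs1, and in 1.05% of 32851 windows of all genes. CCAAT stood in at least 1 window of 21 of the 23 genes and in 22 of 31 windows, against 33.8% of all windows. GGGCGG stood in 20 genes and 23 windows, against 32.7%, and CACGTG in 5 genes and 5 windows, against 6.02%. Such matches describe letters in a window and are no evidence of binding. The windows of Hmgcs1, which has the single sterol element, and of Lbr, the gene that fell, are shown with all matches of the 4 motifs, on either strand, in capitals.
Hmgcs1 (chr13:119690101-119690350, plus strand): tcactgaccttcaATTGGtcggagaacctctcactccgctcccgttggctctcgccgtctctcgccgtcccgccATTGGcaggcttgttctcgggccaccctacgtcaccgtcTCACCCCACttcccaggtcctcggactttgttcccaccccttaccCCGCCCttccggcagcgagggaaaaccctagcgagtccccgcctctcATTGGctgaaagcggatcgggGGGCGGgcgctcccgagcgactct
Lbr (chr1:181842402-181842651, minus strand): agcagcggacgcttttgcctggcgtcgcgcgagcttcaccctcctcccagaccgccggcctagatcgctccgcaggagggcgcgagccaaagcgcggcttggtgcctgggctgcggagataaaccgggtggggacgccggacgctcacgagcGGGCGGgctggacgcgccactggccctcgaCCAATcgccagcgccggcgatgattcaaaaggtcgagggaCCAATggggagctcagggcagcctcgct
The sterol element of Hmgcs1 began 137 bases before the RefSeq start. The Hmgcs1 window lay outside the gene as annotated in GENCODE M21, and the Lbr window lay in an intron of a longer annotated transcript. The Hmgcs1 window held 3 NF-Y boxes and 2 Sp1 boxes, and the Lbr window 2 NF-Y boxes and 1 Sp1 box.

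Few of these genes passed the main test for a difference between the groups. Of 23 tested, Fdft1 and Msmo1 rose, Lbr fell, and 20 did not pass an adjusted p of 0.05 (limma-trend on log2(RPM + 1), Benjamini-Hochberg over all 9460 genes tested). The called share was 13.0% of the sterol genes, where 35.2% of all tested genes were called. By direction, 2 of 23 were higher against 12.7% of all tested genes, and 1 of 23 was lower against 22.5%. At an unadjusted p under 0.05 there were 7 sterol genes, 4 higher and 3 lower. The median log2 fold change, BMP9 overexpression minus control, was 0.01 over the 23 genes, with a range of -1.24 to 1.27, and -0.24 over all tested genes. RPM is relative, so this general shift bears on every value. With TMM factors, which scale libraries on the bulk of genes, the medians were 0.29 and 0.03, and Sqle and Soat1 joined the genes that rose (4 higher and 1 lower of 23, against 17.7% and 13.9% of all tested genes). The same 5 genes were called on recovered reads by edgeR (17.9% and 15% of all tested genes) and DESeq2 (18.7% and 16.3%). Array weights, which give deviating libraries less weight, called 7 higher and 4 lower of 23, where 18.5% and 35.4% of all tested genes were called. Cyp51, Hsd17b7 and Insig1 were added to the higher genes there, and Srebf1, Scap and Insig2 to the lower ones. With a control left out, 24.4%, 28.8% and 28.6% of all tested genes were called (replicates 1, 2 and 3), and with a BMP9 library left out 37.5%, 31.5% and 26.3% (replicates 4, 5 and 6).

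**Figure D1:**
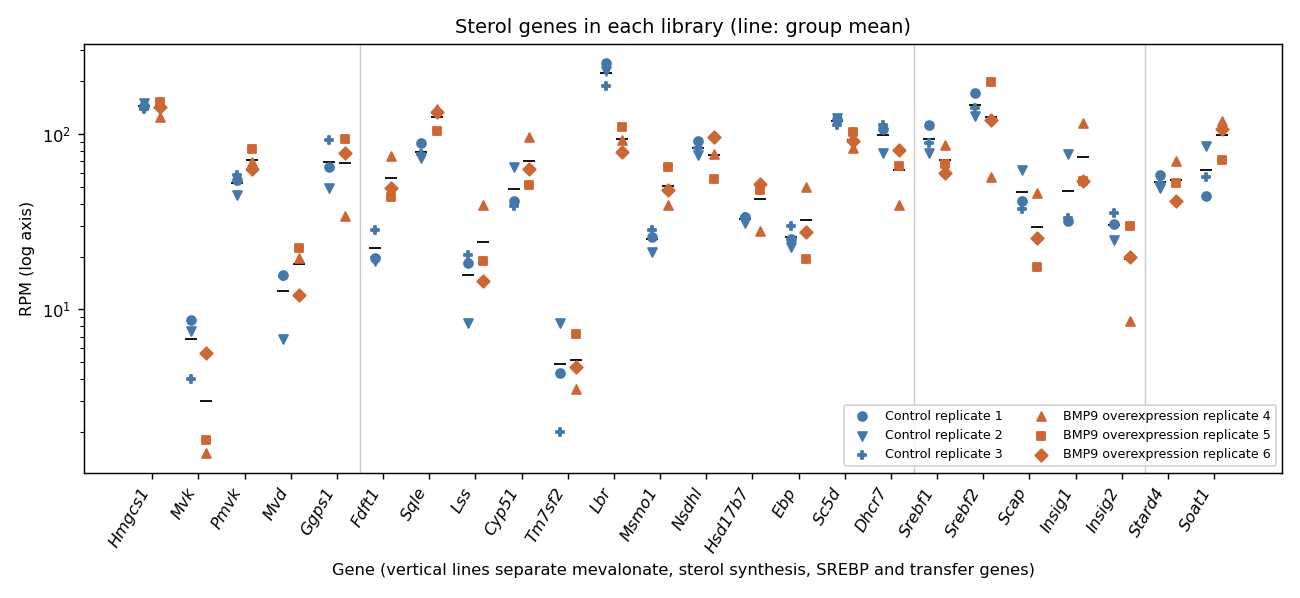
RPM on a log axis of the 24 sterol genes with a row in the table, in each of the 6 libraries, with a line at the mean of each group of 3. Fdft1 and Msmo1 are higher and Lbr is lower in all 3 BMP9 overexpression libraries than in every control, whereas the groups of most other genes overlap.

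The libraries held markers of several cell types. The 13 measured T and NK cell markers all fell, and their sum went from 5288 to 5739 RPM in control to 711 to 1241 RPM under BMP9 overexpression, with none at 0 in any library. All 13 measured cell cycle genes fell as well, with sums of 1269.64 to 1715 and 165 to 209.7 RPM and none at 0. All 12 tested of 14 measured macrophage and monocyte markers rose, with sums of 4704 to 7303 and 18892 to 24883 RPM, and Cd163, C1qa and C1qc were at 0 in at least 1 library. The 16 endothelial markers, Pecam1 included, summed to only 436 to 633 and 360 to 476 RPM, and 7 of them (Tek, Tie1, Emcn, Cldn5, Robo4, Erg and Sox17) were at 0 in at least 1 library. Of 6 tested endothelial markers 1 was higher and 1 lower (16.7% each), where 12.7% of all tested genes were higher and 22.5% lower. S100a8 of the neutrophil list and Cd163 entered the test only through the BMP9 libraries, and Kdr, Bub1 and Tpx2 only through the controls, so the filter favoured their calls. The 3 tested of 9 neutrophil markers were called higher, where 12.7% of all tested genes were (sums of 9.84 to 31.0 and 93.3 to 210.2 RPM, Mpo at 0 in every library). Of 13 genes of the response to tissue dissociation 7 rose (53.8%) and 1 fell (7.69%), against 12.7% and 22.5% of all tested genes (sums of 4256 to 5428 and 5666 to 7816 RPM). The gene that fell, Jund, also passed the filter through 1 group alone, and without it 7 of 12 rose and 0 fell. Pecam1, which encodes CD31, was at 363 to 532 RPM in the controls and 247 to 353 RPM in the BMP9 libraries, and Eng at 44.9 to 52.2 and 67.4 to 92.4 RPM, while none of the other 14 endothelial markers exceeded 31.5 RPM in any library. In such bulk libraries, fewer cells of a type and less RNA per cell cannot be told apart, and the part that cell makeup has in the values of the sterol genes was not tested. Depth ranged from 1321762 to 28380957 reads per library, so 3 reads correspond to 0.106 to 2.27 RPM, a floor that covers counting error only.

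No mevalonate gene was called among the 5 tested (median log2 fold change -0.05). Hmgcs1, the cytosolic synthase that makes HMG-CoA (chromosome 13, 119690379 to 119708260), had 144, 149 and 139 RPM in the controls, in replicate order, and 125, 152 and 141 RPM in the BMP9 libraries. The groups overlapped, and the log2 fold change was -0.05 (95% interval -0.58 to 0.48, adjusted p = 0.89 by limma), with a value of 0.23 under TMM scaling. That interval leaves room for a change of either sign, so equality was not shown. Its promoter carries the only degenerate sterol element found among the genes with a window.

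The kinases and the decarboxylase that follow lay on both sides of 0. Mvk, mevalonate kinase (chromosome 5, 114444269 to 114460591), was low throughout, at 8.73, 7.57 and 4.0 RPM in the controls and 1.52, 1.81 and 5.64 RPM in the BMP9 libraries. It entered the test through 3 libraries at or above 5 RPM, 2 of them controls. Its log2 fold change of -1.05 (SE 0.46) did not pass (adjusted p = 0.086), and without BMP9 replicate 6 it was -1.49 and passed (adjusted p = 0.042). Pmvk, phosphomevalonate kinase, had 54.5, 44.6 and 58.5 RPM in the controls and 69.4, 81.9 and 62.8 RPM in the BMP9 libraries. All BMP9 values of Pmvk stood above all controls, and its log2 fold change of 0.43 (SE 0.27) did not pass (adjusted p = 0.23, or 0.055 with TMM scaling). Mvd, which makes isopentenyl diphosphate, had a mean of 12.7 ± 5.08 RPM in the controls and 18.1 ± 5.40 RPM under overexpression (SD, n = 3 each) with overlapping groups. Ggps1, which makes geranylgeranyl diphosphate for prenylation, had 64.8, 49.2 and 92.0 RPM in the controls and 33.9, 93.4 and 78.0 RPM in the BMP9 libraries, so BMP9 replicate 4 lay below every other library and replicate 5 above.

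Squalene synthase showed the largest rise among the 23 tested genes. Fdft1, which joins farnesyl diphosphate into squalene (chromosome 14, 63145150 to 63179578, minus strand), had 19.6, 18.9 and 28.5 RPM in the controls. The BMP9 libraries had 75.0, 43.5 and 49.0 RPM. Every BMP9 library was above every control, and replicate 4 was the highest. The log2 fold change was 1.27 (SE 0.32, 95% interval 0.59 to 1.95, limma adjusted p = 0.0064), a 2.41-fold rise on this scale. The call held in all 17 alternative settings, with log2 fold changes of 1.04 to 1.73 and adjusted p of 6e-05 to 0.034. Without replicate 4 the value was 1.04 (adjusted p = 0.016). Within the earlier run stamp, and with the stamp as a covariate, it was 1.73, and both of these values rest on replicate 4 alone beside the 3 controls.

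The epoxidase and cyclase after it were not called. Sqle, squalene epoxidase (chromosome 15, 59315077 to 59331192), a rate-controlling enzyme of the later pathway, had 88.1, 72.6 and 77.0 RPM in the controls and 138, 104 and 134 RPM in the BMP9 libraries. The groups of Sqle did not overlap, yet its log2 fold change of 0.65 (SE 0.26, 95% interval 0.09 to 1.2) missed the threshold (adjusted p = 0.068). It passed under TMM scaling (0.93, adjusted p = 0.012), edgeR (0.91, adjusted p = 0.014), DESeq2 (0.90, adjusted p = 0.0050), quantile normalization (0.75, adjusted p = 0.037) and array weights (0.66, adjusted p = 0.0074). Lss, lanosterol synthase, had 18.3, 8.32 and 20.5 RPM in the controls and 39.5, 18.8 and 14.4 RPM in the BMP9 libraries. Replicate 4 of Lss lay above the rest, while replicates 5 and 6 fell within the control range (log2 fold change 0.56, SE 0.42, adjusted p = 0.32). The value of Lss was 0.16 without BMP9 replicate 4, 0.85 without BMP9 replicate 6 and 0.18 without control replicate 2.

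Of the enzymes that trim lanosterol, Msmo1 rose. Msmo1, the methylsterol monooxygenase that starts removal of methyl groups from sterol intermediates (chromosome 8, 64718139 to 64733792, minus strand), had 26.0, 21.2 and 28.5 RPM in the controls and 39.5, 64.6 and 48.1 RPM in the BMP9 libraries. All BMP9 values were above all controls, with replicate 5 the highest. The log2 fold change was 0.96 (SE 0.30, 95% interval 0.31 to 1.61, limma adjusted p = 0.023), a 1.95-fold rise on this scale. Its call was less stable than that of Fdft1 and was lost in 6 of 17 alternatives. Adjusted p was 0.067 without control replicate 1, 0.069 without control replicate 2, 0.090 without BMP9 replicate 5 and 0.064 without BMP9 replicate 6. Within the earlier run stamp the log2 fold change was 0.64 (adjusted p = 0.25, or 0.22 with the stamp as a covariate).

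Nsdhl and Hsd17b7, its partners in removing these methyl groups, were not called, and neither was Cyp51. Nsdhl, the decarboxylating sterol dehydrogenase, had means of 83.3 ± 7.77 RPM in the controls and 75.6 ± 20.1 RPM under overexpression (SD, n = 3 each). Hsd17b7, the keto-reductase of these steps, had 33.4, 31.0 and 33.5 RPM in the controls and 27.9, 47.6 and 51.9 RPM in the BMP9 libraries, so replicate 4 lay below the controls and replicates 5 and 6 above them. Cyp51, the demethylase that acts on lanosterol at a separate step, had means of 48.3 ± 13.9 and 70.1 ± 23.4 RPM with overlapping groups (log2 fold change 0.51, SE 0.32, adjusted p = 0.22, and 0.26 without BMP9 replicate 4).

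Lbr was the gene that fell. It encodes the lamin B receptor, a protein of the inner nuclear membrane that tethers chromatin to the lamina and also has sterol reductase activity (chromosome 1, 181815335 to 181843046, minus strand). The controls had 252, 228 and 187 RPM, and the BMP9 libraries 92.7, 109 and 78.5 RPM. The highest BMP9 library was well below the lowest control. The log2 fold change was -1.24 (SE 0.26, 95% interval -1.80 to -0.68, limma adjusted p = 0.0021). The call held in all 17 alternatives, with values from -1.42 to -0.96, and it was -1.24 within the earlier run stamp, where only BMP9 replicate 4 stands beside the controls. The summed T and NK cell and cell cycle markers also fell (values above), and their part in the change of Lbr was not tested.

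Tm7sf2 encodes the sterol reductase that acts at the same step as Lbr. It had 4.36, 8.32 and 2.00 RPM in the controls and 3.55, 7.26 and 4.69 RPM in the BMP9 libraries, and at this level it was not tested. The groups overlapped, and the lowest and the highest library were both controls.

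The last enzymes of the pathway were not called. Ebp, the sterol isomerase, had 25.3, 22.7 and 30.003 RPM in the controls and 49.6, 19.3 and 27.6 RPM in the BMP9 libraries, with replicate 4 above and replicate 5 below all controls. Sc5d, the sterol desaturase, was steady within each group, at 121, 123 and 113 RPM in the controls and 83.6, 102 and 90.9 RPM in the BMP9 libraries. All BMP9 values of Sc5d were below all controls, and its log2 fold change of -0.37 (SE 0.25, adjusted p = 0.28) lay close to the median of all tested genes and was -0.08 with TMM scaling. Dhcr7, the reductase that turns dehydrocholesterol into cholesterol, had 106, 77.9 and 113 RPM in the controls and 39.5, 65.8 and 81.1 RPM in the BMP9 libraries. Replicates 4 and 5 of Dhcr7 were below all controls and replicate 6 was not (log2 fold change -0.70, SE 0.31, adjusted p = 0.091), and without replicate 4 the value was -0.41 (adjusted p = 0.26). The call was gained within the earlier run stamp, where only replicate 4 is compared with the controls (-1.28), and with the stamp as a covariate, which gives the same value.

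**Figure D2:**
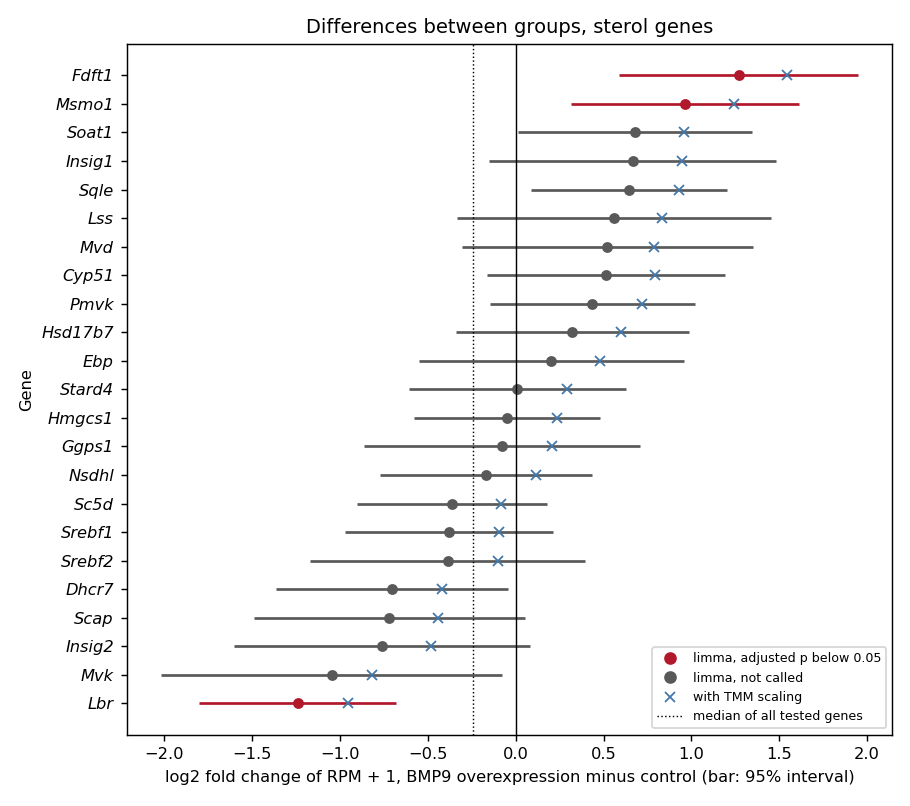
Log2 fold changes of RPM + 1, BMP9 overexpression minus control, of the 23 tested sterol genes with 95% intervals from limma, and crosses for the values with TMM scaling. Fdft1 (1.27), Msmo1 (0.96) and Lbr (-1.24) are the called genes, and the dotted line marks the median of all tested genes at -0.24.

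The SREBP factors and their regulators were not called in either direction. For these 5 genes the median log2 fold change was -0.39. Srebf1, which favours fatty acid genes, had 112, 77.9 and 88.5 RPM in the controls and 86.6, 67.4 and 59.7 RPM in the BMP9 libraries. BMP9 replicate 4 of Srebf1 lay among the controls and replicates 5 and 6 below them (log2 fold change -0.38, SE 0.28, adjusted p = 0.31, and -0.24 without control replicate 1). Srebf2, which favours cholesterol genes, had 171, 126 and 140 RPM in the controls and 56.7, 197 and 120 RPM in the BMP9 libraries. BMP9 replicate 4 of Srebf2 was the lowest and replicate 5 the highest of all 6, a 3.47-fold span within the group against 1.36-fold among the controls. Its log2 fold change was -0.39 (SE 0.37, adjusted p = 0.44) and turned to 0.09 without replicate 4, and it was -0.80 without replicate 5.

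Scap, the escort of SREBP, had 41.2, 62.0 and 37.5 RPM in the controls and 46.1, 17.5 and 25.4 RPM in the BMP9 libraries. Replicate 4 lay among the controls and replicates 5 and 6 below them, so the log2 fold change of -0.72 (SE 0.36, adjusted p = 0.14) became -1.08 and passed without replicate 4 (adjusted p = 0.016), and was -0.41 without replicate 5. Insig1, a retention protein whose gene is itself an SREBP target, had 31.9, 77.2 and 33.0 RPM in the controls and 115, 53.7 and 53.8 RPM in the BMP9 libraries. Control replicate 2 of Insig1 stood above BMP9 replicates 5 and 6 (log2 fold change 0.66, SE 0.38, adjusted p = 0.19), and without that control the value was 1.07 and was called, while without BMP9 replicate 4 it was 0.30 (adjusted p = 0.53). Insig2, the second retention protein, had 30.5, 25.0 and 35.5 RPM in the controls and 8.61, 29.7 and 19.9 RPM in the BMP9 libraries. Replicate 4 was the lowest, and replicate 5 lay among the controls (log2 fold change -0.76, SE 0.40, adjusted p = 0.15). Without BMP9 replicate 5 the value of Insig2 was -1.13 and was called, and without replicate 4 it was -0.29 (adjusted p = 0.50).

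Sterol transfer and esterification genes were not called as RPM was deposited. Stard4, a soluble carrier that moves sterol between membranes, had 58.3, 49.2 and 52.5 RPM in the controls and 70.4, 52.2 and 41.7 RPM in the BMP9 libraries, with BMP9 replicates above, among and below the controls. Its log2 fold change was 0.01 (95% interval -0.61 to 0.63). Soat1, which esterifies cholesterol for storage in droplets and is known for this role in macrophages, had 44.1, 85.5 and 56.5 RPM in the controls and 118, 70.8 and 107 RPM in the BMP9 libraries. Control replicate 2 of Soat1 lay above BMP9 replicate 5, and the log2 fold change of 0.68 (SE 0.31, adjusted p = 0.11) did not pass. It was called with TMM scaling (0.96, adjusted p = 0.032), with edgeR, DESeq2 and array weights, and without control replicate 2.

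**Figure D3:**
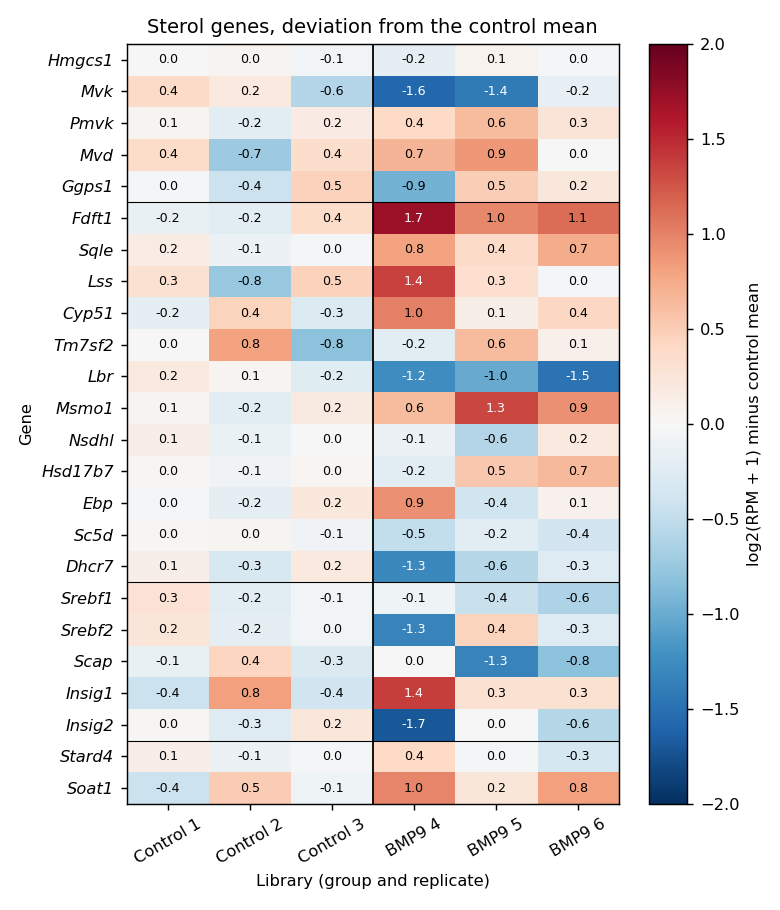
Each cell gives log2(RPM + 1) of a sterol gene in a library minus its mean over the 3 controls, with libraries in columns and genes in rows. Fdft1, Msmo1 and Lbr deviate in the same direction in all 3 BMP9 overexpression libraries. So do several genes that were not called, among them Pmvk, Sqle, Soat1, Sc5d, Insig2 and Dhcr7. Srebf2, Insig2, Ggps1 and Dhcr7 reach their lowest values in replicate 4.

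The BMP9 libraries varied more among themselves than the controls did. Over the 23 tested genes the median SD of log2(RPM + 1) was 0.25 in control and 0.45 in BMP9 libraries, against 0.31 and 0.37 over all tested genes. Of the 24 genes, 11 were above and 9 below all controls in replicate 4, 9 and 8 in replicate 5, and 7 and 7 in replicate 6. Such counts were not taken over all tested genes, so they have no background share and only describe the libraries. Groups did not overlap for 6 of the 23 tested genes (Pmvk, Fdft1, Sqle and Msmo1 higher, Lbr and Sc5d lower), where 48.1% of all tested genes did not overlap. By direction, 16.8% of all tested genes were higher without overlap and 31.2% lower. BMP9 replicate 4 shares its run stamp with the 3 controls, and replicates 5 and 6 carry a later one with no control. Within the earlier stamp 1 sterol gene was higher (Fdft1) and 4 were lower (Lbr, Dhcr7, Srebf2 and Insig2), where 10.3% and 17.6% of all tested genes were called. That comparison has a single BMP9 library, which is assumed to vary like the controls. With the stamp as a covariate on all 6 libraries the fold changes are the same, since only replicate 4 shares a stamp with controls, and the spread is also taken from replicates 5 and 6. Fdft1, Lss and Insig1 were higher and the same 4 genes lower in that fit, where 12% and 19.6% of all tested genes were called.

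Other genes of lipid handling were described in 7 lists. The lists were chosen with earlier results of these data known, so their shares are descriptive and not independent support. Over these lists with 71 tested genes, 18 (25.4%) rose and 7 (9.86%) fell, where 12.7% of all tested genes were higher and 22.5% lower. Cd36 and Ch25h passed the filter through the BMP9 libraries alone, and without them 16 of 69 rose and 7 fell. Within the earlier run stamp 13 of them were called in either direction, where 27.9% of all tested genes were.

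Most tested uptake genes were called higher. Of 6 tested genes of lipoprotein and scavenger uptake 5 rose (83.3%, against 12.7% of all tested genes) and none fell. The exception was Scarb1 (0.42, adjusted p = 0.24), and without Cd36, which the filter favoured, 4 of 5 rose, with a median log2 fold change of 1.01. Cd36, a scavenger receptor and fatty acid transporter, went from 2.07 ± 1.02 to 38.0 ± 5.80 RPM (SD, n = 3 each), and it passed the filter through the BMP9 libraries alone. Stab1, a scavenger receptor, went from 162 ± 78.7 to 823 ± 50.5 RPM (log2 fold change 2.44, SE 0.31), and Lrp1, a large endocytic receptor of lipoproteins, from 215 ± 71.9 to 1229 ± 597 RPM (2.47, SE 0.35). Msr1, the macrophage scavenger receptor, rose by 1.01 on the log2 scale. The sum of macrophage and monocyte markers given above also rose, and its part in the values of the uptake genes was not tested.

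Among Liver X receptor and efflux genes 4 of 11 rose (36.4%, against 12.7% of all tested genes) and none fell (median 0.39). Abca1, the exporter that loads cholesterol onto lipoproteins, went from 61.8 ± 29.3 to 391 ± 257 RPM (SD, n = 3 each; log2 fold change 2.57, SE 0.44, limma adjusted p = 0.0004). The others were Smpdl3a (1.21), Rxra (1.13), the partner of nuclear receptors, and Arl4c (0.94). Ch25h, the enzyme that makes an oxysterol known to hold SREBP back, was the only tested gene of 4 measured in its list and went from 0.783 ± 0.296 to 12.0 ± 7.15 RPM (SD, n = 3 each). It too passed the filter only through the BMP9 libraries. Of 15 lysosomal and membrane transfer genes 5 rose (33.3%) and 1 fell (6.67%), against 12.7% and 22.5% of all tested genes (median 0.55). The lysosomal proteins Npc2 (1.85), Lamp2 (1.33) and Lamp1 (1.2) and the transfer proteins Osbpl11 (1.5) and Scp2 (1.43) rose. The groups of Npc2 overlapped, with 361 ± 236 RPM in control and 1309 ± 828 RPM under overexpression (SD, n = 3 each; SE of the fold change 0.49). Gramd1a, a carrier of plasma membrane cholesterol, fell by 1.38 on the log2 scale. The sum of macrophage and monocyte markers given above also rose, and its part in these values was not tested.

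Of 12 tested fatty acid synthesis genes 4 fell (33.3%, against 22.5% of all tested genes), none rose and 8 did not pass (median -0.54, with 4 fold changes above 0). With TMM scaling 2 of 12 were lower, where 13.9% of all tested genes were. Acly, which supplies cytosolic acetyl-CoA to both fatty acids and sterols, went from 180 ± 6.0 to 74.5 ± 18.6 RPM (SD, n = 3 each; log2 fold change -1.29, SE 0.27, limma adjusted p = 0.0019). Fasn, the fatty acid synthase, went from 118 ± 35.3 to 44.3 ± 23.3 RPM (SD, n = 3 each; -1.48, SE 0.36). Acaca, acetyl-CoA carboxylase, had a log2 fold change of -1.32 and Elovl5, an elongase, of -0.82. With TMM scaling the calls of Acly and Fasn held, and those of Acaca (-1.05, adjusted p = 0.070) and Elovl5 (-0.53, adjusted p = 0.12) were lost. The sums of cell cycle genes and lymphocyte markers given above also fell, and their part was not tested.

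The machinery of SREBP cleavage and sterol-driven degradation was mixed. Of 11 tested genes 2 rose (18.2%) and 1 fell (9.09%), where 12.7% and 22.5% of all tested genes did (median -0.08). Mbtps2, the site-2 protease that releases SREBP from the membrane, rose by 0.80 (SE 0.28, adjusted p = 0.038), and Erlin1, an endoplasmic reticulum scaffold of sterol-driven degradation, rose by 0.82 (SE 0.28, adjusted p = 0.036). Rnf145, a sterol-responsive ubiquitin ligase, was lower (-0.94, adjusted p = 0.024), a call that TMM scaling removed (-0.66, adjusted p = 0.10). Of 15 prenylation and isoprenoid branch genes 1 rose and 1 fell (6.67% each, below the shares of all tested genes; median -0.49). Nus1, a subunit of the dolichol-making transferase, went from 72.0 ± 23.4 to 241 ± 56.9 RPM (SD, n = 3 each; 1.76, SE 0.30, limma adjusted p = 0.0004), and Zmpste24, a protease of prenylated prelamin, fell by 1.07 on the log2 scale.

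**Figure D4:**
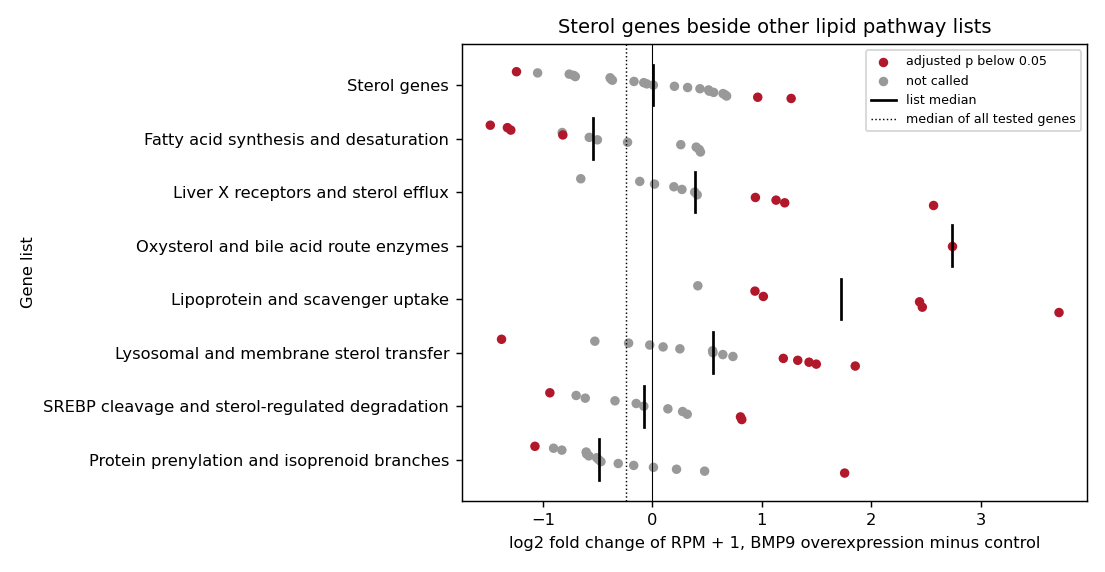
Log2 fold changes of RPM + 1, BMP9 overexpression minus control, of the tested genes of each list, with called genes in red, a bar at each list's median and a dotted line at the median of all tested genes. The 23 sterol genes centre at 0.01, the uptake genes at 1.73 with Cd36 included, and the fatty acid synthesis genes at -0.54.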

How the data were processed

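RPM values of an amplicon panel (Ion AmpliSeq mouse transcriptome) were deposited by the authors, scaled to each library's total reads, as the table's column sums show. The panel reads a short segment of each gene, so levels of different genes are not compared. Per the submitters' processing notes the genome was mm10, while aligner and counter are not given in the sources used. Whole reads were recovered for 100% of the values above 0 within 0.05 reads, which gave depths and allowed count tests as alternatives.

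Groups came from the sample titles, with 3 libraries each. Log2(RPM + 1) values, not scaled further, were tested with limma-trend (R 4.3.3, limma 3.58.1). Genes entered with 5 RPM or more in at least 3 libraries, p-values were adjusted over all of them by Benjamini and Hochberg, and the threshold was 0.05. A fold change is on that scale and understates low genes. The procedure was tested on simulated data in which few genes changed and no general shift was set, unlike in these data. Alternatives were pseudocounts of 0.5 and 5, no filter, a mean of at least 20 RPM, TMM and quantile scaling, array weights, the run stamp, each library left out (on the same genes), edgeR 4.0.16 and DESeq2 1.42.0 on recovered reads. Ratios within a library were added after seeing the data.

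The members and lists were chosen with earlier results of these data known. All members with a row are named, with up to 4 genes of smallest p from each pathway list. Npc2, Lamp2 and the Hmgcs1 promoter were added after their values were seen, and Lbr is shown as a called gene. Coordinates are of GENCODE M21, and promoter sequences of RefSeq.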

Additional observations from a re-analysis of the deposited data

How the results depend on the processing

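Fdft1 and Lbr kept their calls in all 17 alternatives, of which the earlier run stamp alone and the stamp as a covariate both rest on BMP9 replicate 4. The count of sterol genes called lower, 1, was 4 with array weights, within the earlier run stamp and with the stamp as a covariate, and 1 to 2 when a library was left out. The count called higher, 2, was 4 with TMM scaling, edgeR and DESeq2, 7 with array weights, 1 within the earlier stamp, and 1 to 3 when a library was left out. The 25 called pathway genes became 13 within the earlier stamp. No paired analysis was possible because the groups share no replicate number. Direction turned in at least 1 alternative for some genes that were not called, and the cause was not tested. With TMM, edgeR and DESeq2, Hmgcs1 had log2 fold changes of 0.23, 0.21 and 0.20, Ggps1 0.20, 0.275 and 0.26, and Nsdhl 0.11, 0.12 and 0.11, while Srebf2 had 0.047 and 0.037 with edgeR and DESeq2. Quantile normalization gave 0.000395 for Hmgcs1 and 0.067 for Ggps1. Array weights gave -0.070 for Mvd, 0.092 for Ggps1, -0.12 for Lss, 0.041 for Nsdhl and -0.31 for Stard4. Within the earlier stamp, and with it as a covariate, Hsd17b7 had -0.22 and Scap 0.0088. Leaving out a library gave -0.115 to 0.025 for Hmgcs1, -0.36 to 0.36 for Ggps1, -0.35 to 0.039 for Nsdhl, -0.16 to 0.50 for Ebp, -0.80 to 0.089 for Srebf2 and -0.19 to 0.19 for Stard4. Mvk, Mvd and Lss have no value at a mean of at least 20 RPM. Depths of 1321762 to 28380957 reads limit genes near the floor, such as Mvk and Tm7sf2.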

Other observations

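The paralogs Insig1 and Insig2, which both hold SCAP in the endoplasmic reticulum, were compared within each library. Scaling has no bearing on the plain RPM ratio and enters the log2 ratio only through its pseudocount. The ratio of Insig1 to Insig2 RPM was 1.04, 3.09 and 0.93 in control replicates 1, 2 and 3 and 13.4, 1.81 and 2.71 in BMP9 replicates 4, 5 and 6. The groups overlapped through control replicate 2, and replicate 4 stood far above the other 5 libraries. On the log2 scale, with a pseudocount of 1, the difference of means was 1.42 (exact two-sided permutation p = 0.3, or 0.3 adjusted over the 2 ratios computed), and it was 0.60 without replicate 4.

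Fdft1 and Ggps1 draw on the same intermediate, farnesyl diphosphate, for sterols and for prenylation. The ratio of Fdft1 to Ggps1 RPM was 0.303, 0.385 and 0.310 in control and 2.21, 0.466 and 0.628 in BMP9 libraries. All BMP9 ratios were above all control ratios, and replicate 4 was the highest. The ratio was chosen after seeing the data, and Fdft1 alone already separated the groups. The separation of the ratio is therefore not independent of the call of Fdft1, and the p-value does not account for that choice. The difference of log2 means was 1.35 (exact two-sided permutation p = 0.1, the smallest that 3 against 3 libraries allow, or 0.2 adjusted over the 2 ratios), and it was 0.68 without replicate 4. Amplicon yield differs between genes, so these ratios compare libraries and are not ratios of molecules.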
